A study of Kluyveromyces lactis with 12 samples.

Results

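JLP1 (KLLA0F26158g) is 1 of the 5081 Kluyveromyces lactis genes on a two-colour Agilent array, and was chosen by its identifier with its levels and its ratios between strains already known. JLP1 is the name of the Saccharomyces cerevisiae counterpart, a sulfonate dioxygenase. Because the levels in both strains and the ratios in every condition belong to what the gene was chosen for, they are given as a description with errors and without a test.

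K. lactis is a budding yeast that grows on milk sugar. Exponentially growing cells of a strain lacking KlYAP8 (Klyap8 deletion) and of the wild type (Klwt) were taken from YPD, a rich medium. On each of the 12 arrays, both strains of 1 condition were hybridised together, with a different dye for each strain. Cells were exposed for 30 min to sodium arsenite, As(III), or to t-BOOH (tert-butyl hydroperoxide, an organic peroxide) at 0.25 mM, or were left untreated, with 4 biological experiments for each condition. For arsenite the treatment labels give 25 mM and the treatment protocol gives 0.1 mM, so the dose is not settled. No further marker or allele of either strain is given in the labels, and neither is the number of deletion clones. In each condition the dye orientation was reversed on 2 arrays of 4.

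In S. cerevisiae, Jlp1 is an enzyme that uses iron and 2-oxoglutarate to split sulfonates such as taurine, and so frees sulfite. Sulfite is an intermediate of sulfate assimilation, from which the cell makes sulfide, cysteine, methionine and glutathione. The enzyme lets that yeast use sulfonates as a source of sulfur. Yap8, also called Arr1, is known there as the regulator that switches on the arsenite exporter and the arsenate reductase when arsenic is present.

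The deletion was checked first. ARR1 (KLLA0E00265g), the K. lactis gene with the Yap8 symbol, read lower in the deletion strain throughout the 12 arrays. Deletion over wild type, its log2 ratio averaged -2.09 ± 0.13 under arsenite, -1.69 ± 0.13 under t-BOOH and -1.13 ± 0.35 untreated (SD, 4 arrays each). Their limma adjusted p-values were 9.22e-07, 8.10e-06 and 0.000162 in that order. The sources used here do not say where the ARR1 probe lies relative to the deletion. ARR2 (KLLA0E00243g), which carries the name of the S. cerevisiae arsenate reductase, was also lower in every condition, untreated cells included. Its log2 ratio averaged -4.40 ± 0.21 under arsenite, -1.95 ± 0.12 under t-BOOH and -1.65 ± 0.28 untreated (SD, 4 arrays each). The limma adjusted p-values were 1.08e-10, 1.30e-06 and 1.85e-05 in the same order.

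Between 98.4% and 99.8% of genes were well above background on an array, with median signals of 719 to 3048.75 in Cy3 and 2373.75 to 7526 in Cy5. JLP1 was read by 2 spots of 1 probe on every array. Both spots were well above background in all 24 channels, with raw median brightness between 134.5 and 9583. No JLP1 spot was saturated or carried an outlier flag. On no array did the spots differ by more than 0.12 in log2 ratio, so the spread described below lies between arrays rather than between spots.

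Under arsenite the deletion strain had less JLP1 RNA than the wild type. On a log2 scale of normalised intensity, JLP1 stood at 8.44, 8.56, 8.21 and 8.36 in the deletion strain (replicates 1 to 4), against 10.50, 11.01, 10.08 and 9.54 in the wild type. The highest deletion level lay 0.97 below the lowest wild-type level. The deletion over wild type ratios (log2) were -2.06, -2.45, -1.86 and -1.18, with a mean of -1.89 ± 0.53 (SD, n = 4; SE of the fit 0.18). In these cultures, fewer cells with JLP1 RNA and less RNA per cell cannot be told apart. JLP1 RNA in the deletion strain was 0.270 times that of the wild type, and JLP1 had the 16th lowest ratio of the 5069 genes tested. The deletion levels were close together (SD 0.15), and the wild-type levels were spread more widely (SD 0.63), with replicate 4 the lowest.

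Under t-BOOH the levels in both strains were higher than in any untreated sample, and the deletion strain was again below the wild type. JLP1 stood at 11.002, 10.68, 10.88 and 10.80 in the deletion strain, against 12.23, 11.60, 11.38 and 12.21 in the wild type (log2 normalised intensity). Every deletion level was below every wild-type level. The log2 ratios were -1.23, -0.92, -0.49 and -1.41, with a mean of -1.01 ± 0.40 (SD, n = 4; SE of the fit 0.18), which is 0.496 times the wild-type amount. Replicate 3 had the ratio nearest to 0, and JLP1 had the 58th lowest ratio of all genes tested.

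In untreated cells the strains overlapped. JLP1 stood at 8.32, 8.21, 8.48 and 8.13 in the deletion strain, against 8.18, 8.16, 8.37 and 8.29 in the wild type (log2 normalised intensity). The log2 ratios of 0.14, 0.05, 0.11 and -0.16 lay on both sides of 0, with a mean of 0.03 ± 0.14 (SD, n = 4; SE of the fit 0.18). The deletion strain was below the wild type on 1 of the 4 arrays.

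**Figure D1:**
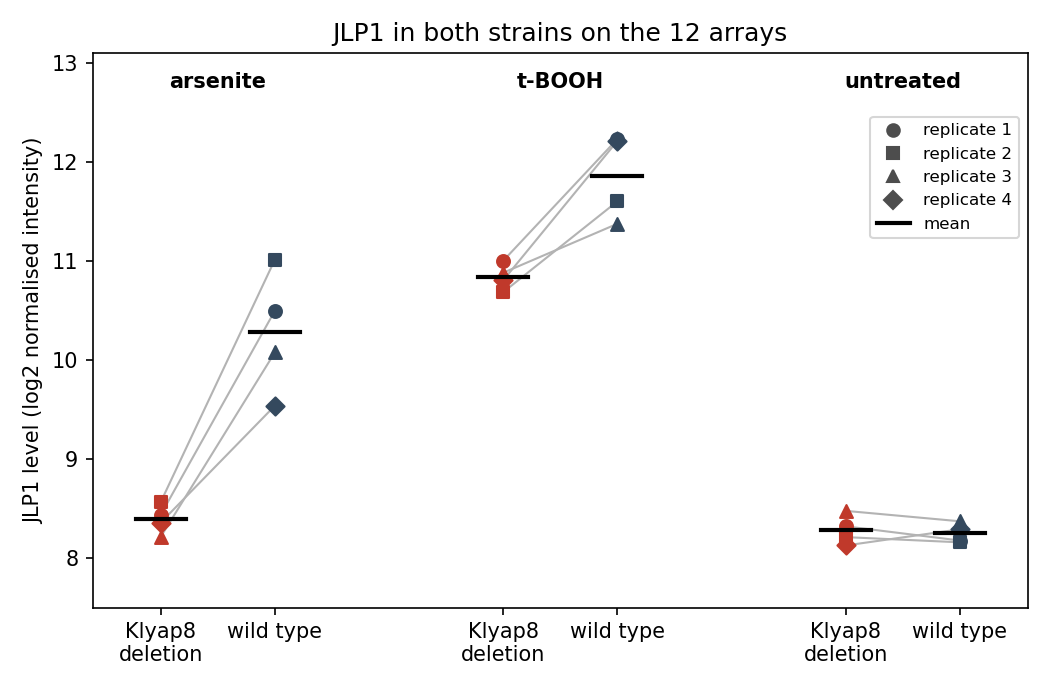
JLP1 level (log2 normalised intensity, vertical axis) in the Klyap8 deletion and the wild type under arsenite, under t-BOOH and untreated, with 1 point per channel, a grey line joining the channels of an array and a black bar for the mean of 4. The lines climb on all 8 stress arrays, and the deletion levels under arsenite (8.21 to 8.56) overlap the untreated ones (8.13 to 8.48).

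The 6 groups fell into 3 tiers. The lowest tier held the wild type untreated (mean log2 level 8.25 ± 0.10), the deletion strain untreated (8.28 ± 0.15) and the deletion strain under arsenite (8.39 ± 0.15), whose ranges overlapped. The middle tier held the wild type under arsenite (10.28 ± 0.63) and the deletion strain under t-BOOH (10.84 ± 0.13), which overlapped as well. The wild type under t-BOOH stood alone at the top (11.86 ± 0.43), with its lowest array at 11.38 and the highest of the middle tier at 11.01 (SD, n = 4 each). All t-BOOH arrays were on slide 2, and the others were on slide 1. For a level under t-BOOH set against an untreated or an arsenite one, slide and condition therefore cannot be told apart. This covers the overlap within the middle tier, and the wild type under arsenite set against the top tier. The strains are compared within each array.

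Set against its own untreated level, JLP1 under arsenite was 1.08-fold higher in the deletion strain and 4.09-fold higher in the wild type. The log2 response to arsenite was 0.11 (SE 0.26) in the deletion strain and 2.03 (SE 0.26) in the wild type. The response to t-BOOH was 2.56 (SE 0.26) in the deletion strain, a 5.89-fold difference, and 3.61 (SE 0.26) in the wild type, a 12.2-fold difference. In the order of all 5069 genes from the most raised, JLP1 was 1758th in the deletion strain and 35th in the wild type under arsenite, and 37th and 19th under t-BOOH. The median response of all genes was within 0.08 of 0 in each of these 4 comparisons. Expressed as differences of the ratio between conditions, arsenite minus untreated was -1.92, t-BOOH minus untreated -1.05 and arsenite minus t-BOOH -0.88 (log2, SE 0.25 each).

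**Figure D2:**
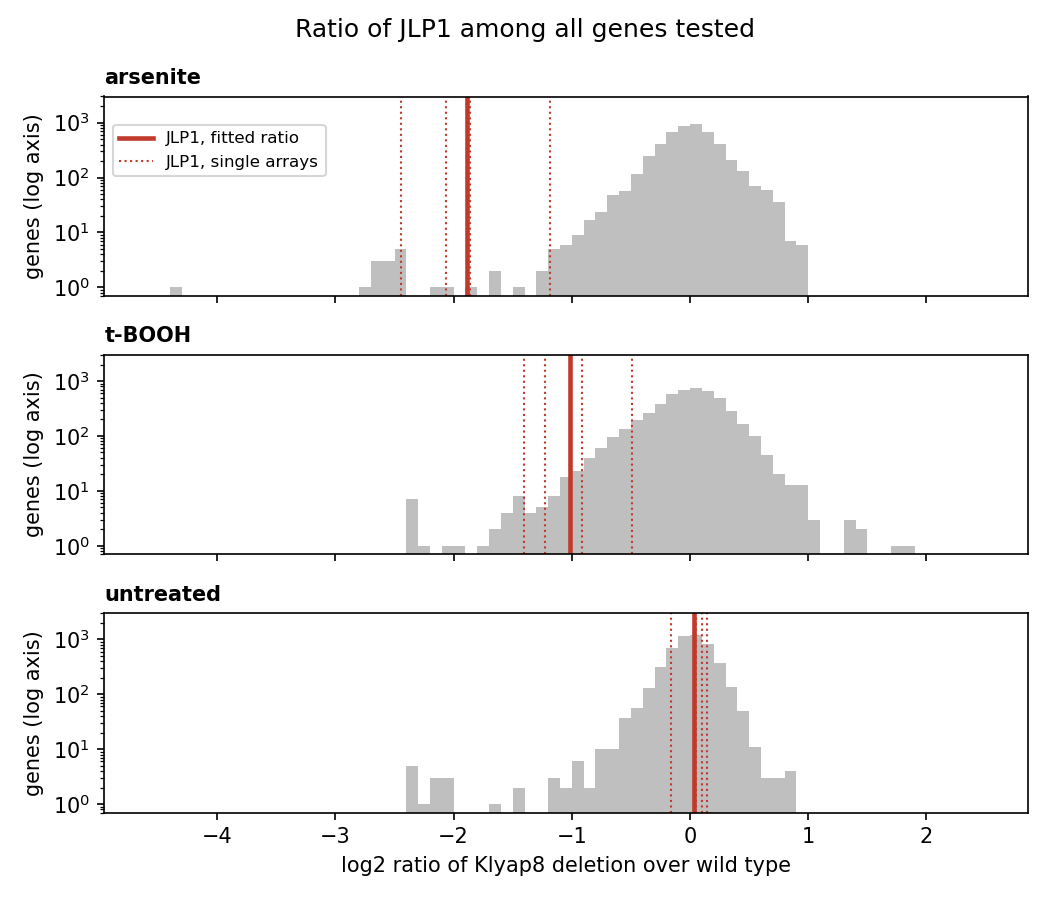
Number of genes (vertical, log axis) by log2 ratio of Klyap8 deletion over wild type (horizontal), for arsenite, t-BOOH and untreated cells, with all 5069 genes in grey, the fitted JLP1 ratio as a solid line and its 4 arrays as dotted lines. The JLP1 line stands at -1.89 under arsenite, at -1.01 under t-BOOH and at 0.03 in untreated cells.

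Arsenite replicate 4 gave the JLP1 ratio nearest to 0 of the arsenite arrays, and its wild-type response was the smallest. Relative to the mean untreated level of the same strain, JLP1 in the 4 arsenite replicates was 0.15, 0.28, -0.07 and 0.07 higher in the deletion strain and 2.25, 2.76, 1.83 and 1.29 higher in the wild type (log2). Over the 34 other genes raised at least as much as JLP1 in the wild type, the median was 2.15, 2.38, 2.18 and 2.36 in the deletion strain and 2.74, 2.98, 2.42 and 2.39 in the wild type. Replicate 4 was thus also lowest in the wild type for those genes, by a smaller margin than for JLP1. Over all genes, the ratios of arsenite replicate 4 had the lowest mean correlation with the other arrays of the condition (0.444, against 0.578 to 0.600 for replicates 1 to 3), and those of t-BOOH replicate 3 the lowest for t-BOOH (0.0340, against 0.414 to 0.540). Without untreated replicate 4, t-BOOH replicate 1 and t-BOOH replicate 3 together, the JLP1 ratios were -1.13 under t-BOOH and 0.09 untreated. That fit kept every arsenite array, so its arsenite ratio of -1.89 could not change. Without arsenite replicate 4 the arsenite ratio was -2.12.

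Most genes that arsenite raised strongly in the wild type were also high in the deletion strain. Of the 35 genes with a wild-type arsenite response of at least that of JLP1, JLP1 included, 2 had a response under 0.5 in the deletion strain. They were JLP1 and STE6 (KLLA0B14256g), the exporter of the a-factor pheromone, which had log2 responses of 0.44 in the deletion strain and 2.24 in the wild type. STE6 was named after its values were seen, and without untreated replicate 2 or 4 the count was 1, JLP1 itself. The count was also 1 without untreated replicate 4, t-BOOH replicate 1 and t-BOOH replicate 3 together. ARR2 had responses of 0.997 in the deletion strain and 3.74 in the wild type. The median over the 35 genes was 2.26 in the deletion strain and 2.57 in the wild type. For t-BOOH, none of the 19 genes with a wild-type response of at least that of JLP1 had a deletion response under 1, and the medians were 4.38 in the deletion strain and 4.403 in the wild type. These genes were picked by their wild-type response, so the strains' medians are a description only.

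**Figure D3:**
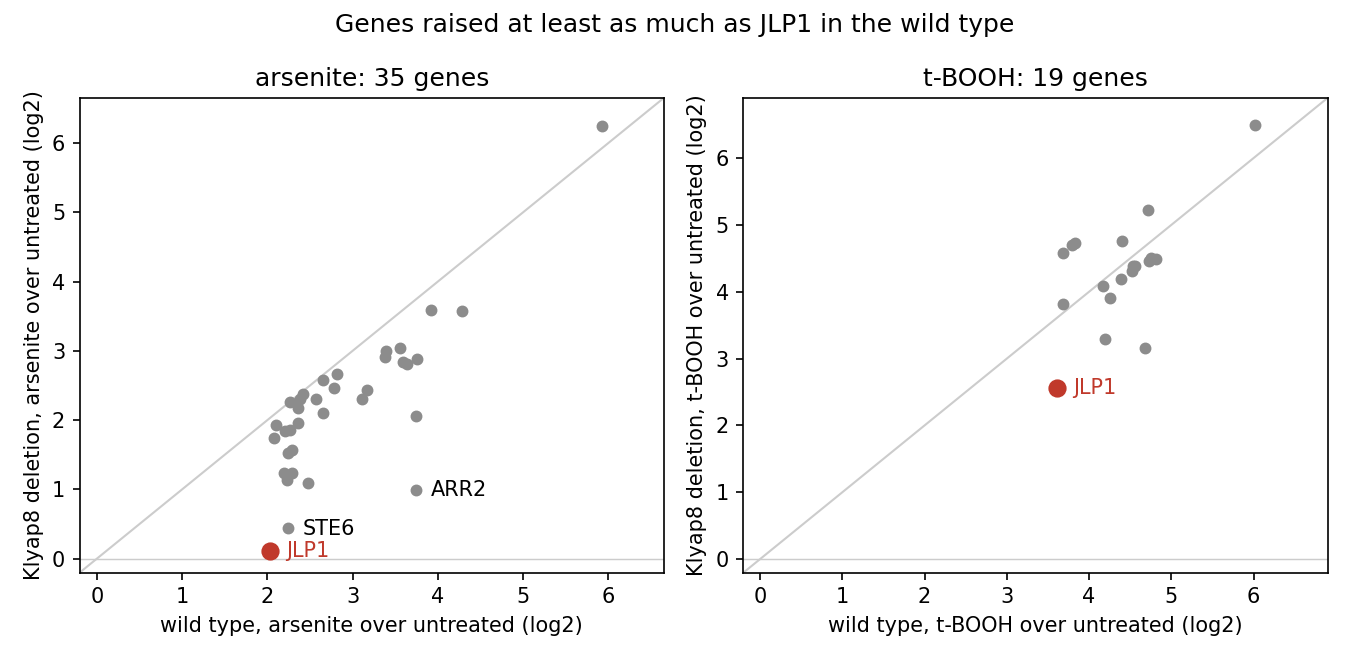
Log2 response in the Klyap8 deletion (vertical) against log2 response in the wild type (horizontal) for the genes raised at least as much as JLP1 in the wild type, 35 under arsenite and 19 under t-BOOH, with 1 point per gene and a grey line of equal response. JLP1 lies at 0.11 (vertical) and 2.03 (horizontal) under arsenite, the lowest point of that panel, and at 2.56 and 3.61 under t-BOOH.

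No listed gene of sulfur metabolism had a ratio as low as that of JLP1 under arsenite. Of 63 listed genes of sulfur compound uptake, sulfate assimilation, methionine and cysteine metabolism, glutathione, sulfur regulation, other 2-oxoglutarate-dependent dioxygenases and arsenic transport (ARR1, ARR2 and JLP1 apart), 49 were tested. Under arsenite 0 of the 49 were called in either direction with limma at an adjusted p under 0.05 (background 3.39% lower and 0.907% higher), with 6 lower and 1 higher at an unadjusted p under 0.05, which 22.6% of all genes passed. With the 4 arsenite arrays fitted alone, 5 were called lower and 1 higher, which was SEO1 (limma adjusted p = 0.0116). Over all genes that fit called 368 lower and 364 higher, more than the 172 and 46 with all arrays. SEO1 was also called higher when arsenite replicate 4 was left out (limma adjusted p = 0.0358), and on leaving out t-BOOH replicate 1 or 3 (0.0312 and 0.0208). With all arrays, the 49 genes had log2 ratios of deletion over wild type from -0.68 (MET17) to 0.51 (SEO1), with a median of -0.06. JLP1 stood at -1.89, and the median over all genes was 0.00130. In untreated cells 0 of 49 were called with limma (background 0.612% lower and 0% higher), with 11 lower and 2 higher at an unadjusted p under 0.05, which 10.4% of all genes passed, and a median of -0.06. All 9 sulfate assimilation genes tested were below 0 in untreated cells (median -0.41), and none was called at a limma adjusted p under 0.05. The lowest was MET14, adenylylsulfate kinase, at -0.96 (SE 0.31, limma adjusted p = 0.308). For the difference of the ratio between arsenite and untreated cells, 0 of 49 were called with limma (background 0.0395% lower and 0% higher). At an unadjusted p under 0.05 there were 2 lower and 3 higher, where 9.57% of all genes passed. Between t-BOOH and untreated cells 1 of 49 was called, the lower SAM4 (background 1.89% lower and 0.947% higher). Between arsenite and t-BOOH 4 of 49 were called, all higher (background 3.47% lower and 4.54% higher).

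Under t-BOOH 8 of the 49 genes were lower in the deletion strain and 0 were higher (limma adjusted p under 0.05; background 10.6% lower and 7.42% higher). Of the uptake genes, 4 of 8 were lower. SEO1, a permease of the allantoate family, had log2 ratios of -1.09, -1.01, -0.19 and -0.69 under t-BOOH (mean -0.75, SE 0.14, limma adjusted p = 0.00390). OPT2, an oligopeptide transporter family member, averaged -0.48, MUP3, a methionine permease, -0.44, and AGP3, an amino acid permease, -0.40. Of the sulfate assimilation genes, 1 of 9 was lower, MET1, which makes the siroheme of sulfite reductase (-0.81, SE 0.16, limma adjusted p = 0.00564). Of the methionine and cysteine genes, 2 of 14 were lower. They were HOM2, aspartate semialdehyde dehydrogenase (-0.64, SE 0.09, limma adjusted p = 0.000847), and SAM4, a homocysteine methyltransferase (-0.60, SE 0.09, limma adjusted p = 0.00137). Of the regulators, 1 of 6 was lower, MET28, a cofactor of Met4 (-0.41). No glutathione, dioxygenase or arsenic gene of the lists was called. With the 4 t-BOOH arrays fitted alone, 0 of the 49 were called in either direction. Over all genes, that fit called only 5 lower and 0 higher, so the 0 says little about the lists. The calls of OPT2, MUP3, AGP3 and MET28 were lost without t-BOOH replicate 1, 2 or 4, with limma adjusted p between 0.0773 and 0.248 there, and those of AGP3 and MET28 also without several arrays of other conditions.

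In the wild-type response to arsenite, JLP1 stood above all 49 genes of the lists, which leave out ARR1 and ARR2. ARR2 stood above JLP1, at 3.74. Of the 49 genes, 12 rose and 7 fell in the wild type (limma separate channels, adjusted p under 0.05; background 12.5% higher and 10.5% lower), with log2 responses from -1.40 (MET1) to 1.59 (HOM3), against 2.03 for JLP1. The wild-type risers included HOM3, aspartate kinase (1.40 in the deletion strain and 1.59 in the wild type), SUL2, a sulfate permease (1.42 and 1.46 in the same order), YCF1, the vacuolar pump for glutathione conjugates (1.08 and 1.45), OPT1, the glutathione transporter (1.19 and 1.17), YCT1, a cysteine transporter (0.69 and 1.17), GSH2, glutathione synthetase (0.42 and 0.94), and CYS3, cystathionine gamma-lyase (0.76 and 0.92). SUL2, OPT1, HOM3, YCF1 and CYS3 also passed in the deletion strain, while YCT1 and GSH2 did not (limma adjusted p = 0.117 and 0.191). The fallers included MET1 (-0.70 in the deletion strain, not passing, and -1.40 in the wild type), CBF1, a DNA-binding regulator of sulfur genes (-0.86 and -1.05), and DUG1, a glutathione-degrading peptidase (-0.40, not passing, and -0.62). MET30, a ubiquitin ligase subunit that restrains Met4, rose (0.56 and 0.71). JHD2, a histone demethylase of the dioxygenase list, fell in the wild type (-0.74, limma adjusted p = 0.0410). In the deletion strain JHD2 stood at -0.73 without passing (limma adjusted p = 0.0731). Its wild-type fall did not pass on leaving out any of 6 arrays (arsenite 1 to 3, untreated 1 and 2 and t-BOOH 4). In the deletion strain 10 of the 49 rose and 1 fell (background 6.29% higher and 3.71% lower). The fallers in the wild type numbered 4 without untreated replicate 1, arsenite replicate 1, arsenite replicate 2 or t-BOOH replicate 4.

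Under t-BOOH, JLP1 in the wild type also stood above all 49 genes. Of the 49 genes, 17 rose and 15 fell in the wild type (limma separate channels, adjusted p under 0.05; background 27.3% higher and 22.2% lower), with log2 responses from -2.73 (MET1) to 1.62 (AGP3), against 3.61 for JLP1. In the deletion strain 14 rose and 15 fell (background 24.1% higher and 19.4% lower). Sulfate assimilation was mostly lower, with 7 of its 9 genes falling and 1 rising in the wild type (median -0.81 in the deletion strain and -1.11 in the wild type). MET1 had log2 responses of -3.14 in the deletion strain and -2.73 in the wild type, and MET14 of -1.42 and -1.65 in the same order. The methionine genes MET6, methionine synthase (-2.05 in the deletion strain and -2.63 in the wild type), and MET2, homoserine acetyltransferase (-1.79 and -1.80), fell, as did MUP1, a methionine permease (-1.59 and -1.19), and TPA1, a dioxygenase (-1.12 and -1.14). GSH2 (1.44 and 1.57), ECM38, gamma-glutamyltransferase (0.88 and 1.44), YCF1 (1.26 and 1.56), FPS1, the aquaglyceroporin (0.86 and 1.33), and AGP3 (1.39 and 1.62) rose. MET28 (0.62 and 0.62) rose in both strains, but did not pass in the wild type when any of t-BOOH replicates 2 to 4 was left out, nor without untreated replicate 2 or 4. JHD1, a histone demethylase, rose in the wild type (0.69, limma adjusted p = 0.0218), which did not pass when t-BOOH replicate 2 or 4 or untreated replicate 4 was left out, and stood at 0.30 in the deletion strain without passing.

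**Figure D4:**
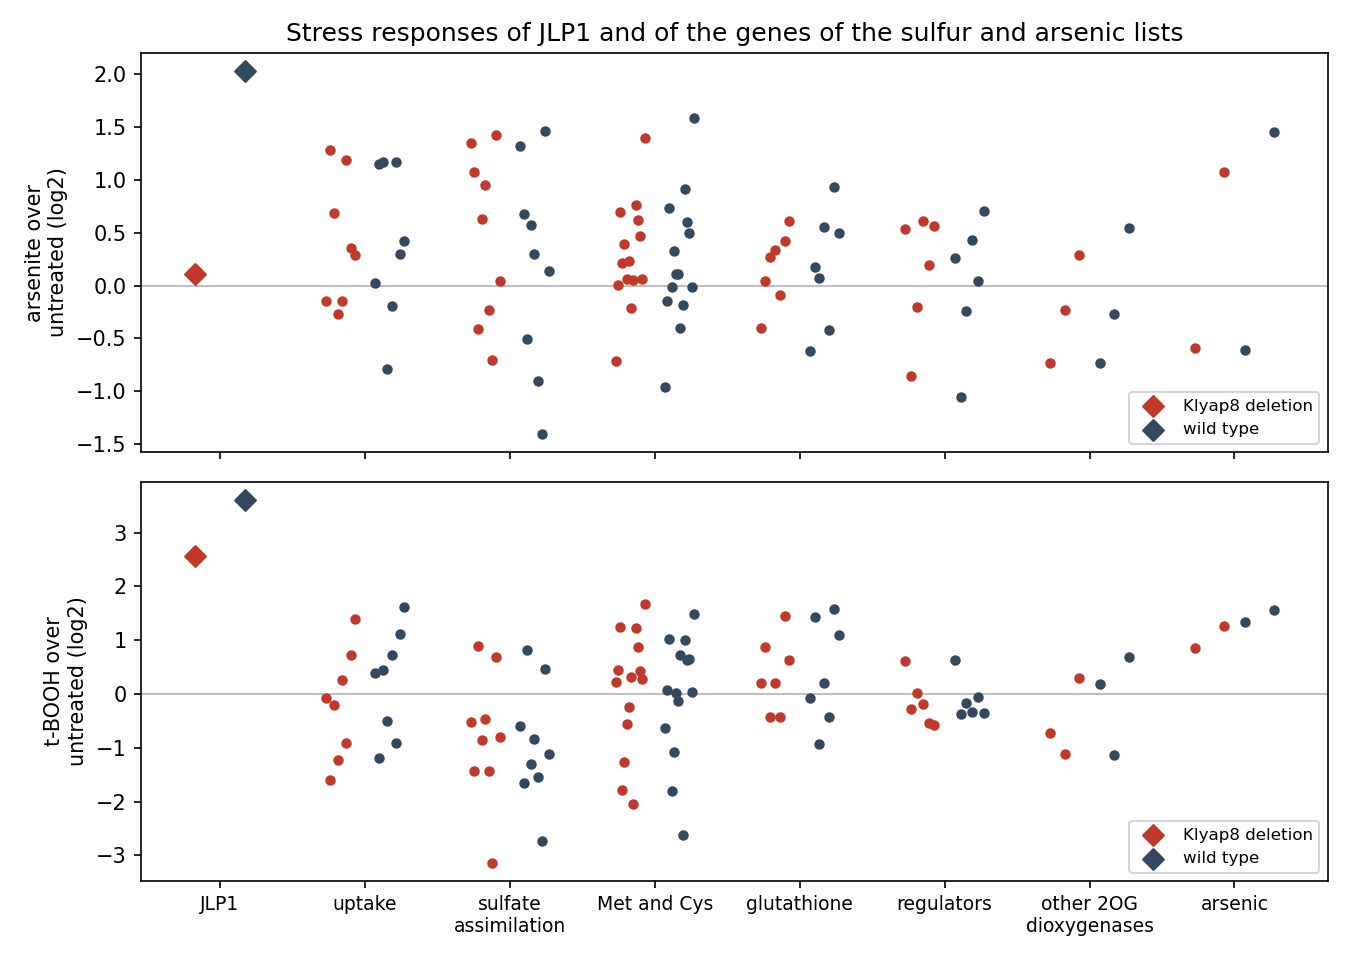
Log2 response to arsenite (upper panel) and to t-BOOH (lower panel), each over untreated cells, for JLP1 (diamonds) and the 49 tested genes of the 7 lists (1 point per gene), with the Klyap8 deletion in red left of the wild type in blue. ARR1 and ARR2 are not among the 49 and are not drawn. JLP1 in the wild type is above each of the 49 genes in both panels (2.03 and 3.61), and in the deletion strain it is near 0 under arsenite (0.11).

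The genes whose ratios followed JLP1 most closely over the 12 arrays had smaller differences between strains than JLP1 under both stresses. JLP1 was chosen with its ratios known. In untreated cells their ratios ran from 0.06 to 0.33, against 0.03 (SE 0.18) for JLP1. There 0 of 5069 genes were called higher in the deletion strain (limma adjusted p under 0.05). The 5 highest Pearson correlations were those of STN1 (0.927), a telomere-capping protein, SSN2 (0.919), a Mediator subunit, VTC5 (0.894), KLLA0D02420g (0.866) and ETR1 (0.864), against a median of 0.03 over 5068 genes. KLLA0D02420g had ratios of -1.63 under arsenite, -0.36 under t-BOOH and 0.06 untreated, and its log2 arsenite response was -0.17 in the deletion strain and 1.51 in the wild type. The arsenite ratios of the other 4 were between -0.72 (ETR1) and -0.45 (VTC5). Over the 24 channel levels the closest genes were KLLA0A08690g (0.959), RRG8 (0.931), BOR1 (0.929), KLLA0D11638g (0.925) and AGP3 (0.921), against a median of 0.10. BOR1, a boron transporter in S. cerevisiae, had log2 t-BOOH responses of 2.75 in the deletion strain and 3.32 in the wild type, and arsenite responses of 0.44 and 1.05 in the same order. AGP3 stood at 0.29 and 0.43 under arsenite. These correlations describe points that share arrays, slides and 3 conditions.

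No gene beside JLP1 was called between the strains with all arrays and median signals, though several were under other settings. In the annotation JLP1 is gene 1116 of 1199 in order on chromosome F, with 83 genes between it and the nearer end. Of the 3 genes on each side, 0 of 6 were called in any of the 3 conditions with limma. The background was 3.39% lower and 0.907% higher under arsenite, 10.6% and 7.42% under t-BOOH, and 0.612% and 0% untreated. At such shares a count of 0 among 6 genes says little about the neighbours. With limma at an unadjusted p under 0.05 there were 2 under arsenite, 3 under t-BOOH and 1 untreated. At that threshold 22.6%, 33.4% and 10.4% of all genes passed in the same order. The nearest genes were VMA5, a subunit of the vacuolar proton pump, and KAR5, a nuclear fusion protein. Under arsenite VMA5 had a log2 ratio of 0.07 (SE 0.15) and KAR5 of 0.02 (SE 0.09). Under t-BOOH they stood at 0.41 (SE 0.15) and -0.06 (SE 0.09), against -1.01 for JLP1. The outer neighbours under arsenite were RRP14 (0.58, SE 0.22), TEF4 (0.34, SE 0.13), AEP1 (0.03, SE 0.15) and DHR2 (0.44, SE 0.21), none below 0. RRP14 passed under arsenite without arsenite replicate 4, VMA5 under t-BOOH without t-BOOH replicate 3 and DHR2 under t-BOOH without untreated replicate 3 (limma adjusted p = 0.0479, 0.00755 and 0.0436). With processed signals, KAR5 (-0.56) and DHR2 (-0.75) were called lower under t-BOOH (limma adjusted p = 0.0381 and 0.0405). With the 4 arsenite arrays alone, RRP14 and DHR2 were called higher (limma adjusted p = 0.0252 and 0.0321), in a fit that called 364 of all genes higher.

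**Figure D5:**
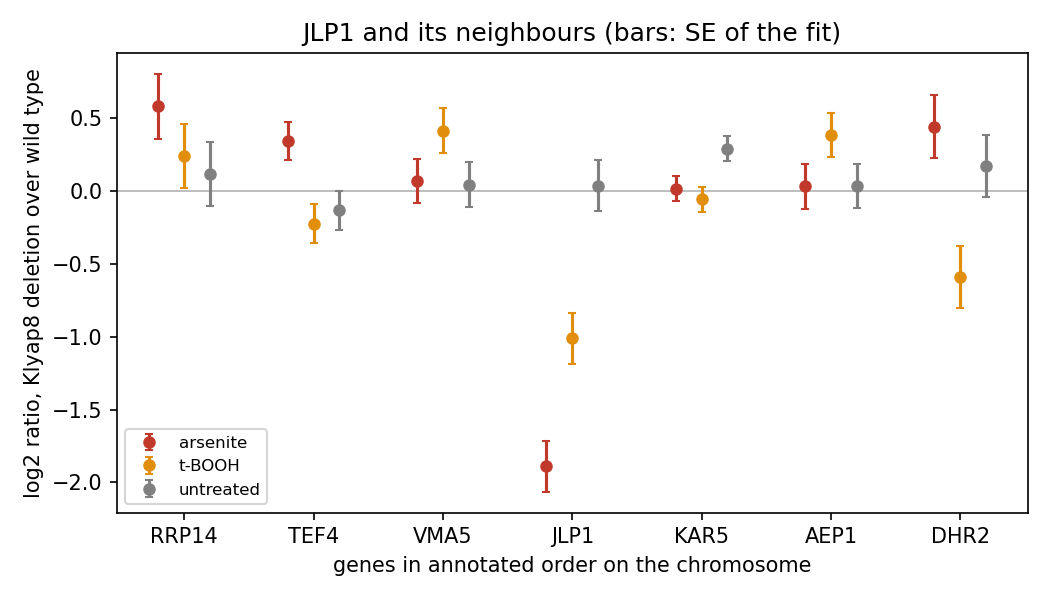
Log2 ratio of Klyap8 deletion over wild type (vertical, with the SE of the fit as bars) for JLP1 and the 3 annotated genes on each side of it in chromosome order (horizontal), for arsenite, t-BOOH and untreated cells. JLP1 is at -1.89 and -1.01 under the stresses, and no neighbour is below -0.59.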

How the data were processed

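RNA of both strains was hybridised to 12 arrays. Per the file headers, Feature Extraction 10.7.3.1 read the scans, and the deposited spot and background intensity values are median pixel brightness without normalization, while processed intensity values were background-subtracted and dye-normalized. The authors' deposited table holds log2 values, whose direction was checked against the scans (correlations 0.991 to 0.999, column medians -0.03 to 0.01). Its normalization and the genome build are not given in the sources used here.

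Median signals were corrected by normexp (offset 50) and normalized by loess within arrays with limma 3.58.1 (R 4.3.3). Control spots, 3 negative-control probes and outlier flags were left out, and spots were averaged. A gene was tested if 4 or more arrays had it well above background in 1 channel at least (5069 of 5081). Ratios were fitted with limma for 3 conditions and dye. Levels and responses came from the separate-channel fit after Aquantile normalization (intraspot correlation 0.630). Calls had a Benjamini-Hochberg adjusted p under 0.05 over all genes. Both fits were tested on simulated data. The number of arrays limits precision.

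The members and lists were chosen with earlier results of these data known. Gene names are those of RefSeq assembly ASM251v1 (5069 identifiers matched). Genes named were JLP1, ARR1, ARR2, the 5 most correlated genes by each measure, 3 neighbours on each side, list members called between strains, and the 2 largest called per list and wild-type response. Roles of genes are those known in S. cerevisiae. Sequences are not reported here. Alternatives covered signal, background, normalization, filter, dye, block and arrays left out.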

Additional observations from a re-analysis of the deposited data

Results flagged for a closer look

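A single array stood far from the other 3 of its condition in 2 of 57 groups examined for this, and chance alone marks about 1 group in 20. RRP14 under t-BOOH had log2 ratios of deletion over wild type of 0.43, 0.36, -0.18 and 0.34 (gap over range 0.854), and KAR5 in untreated cells had 0.34, 0.03, 0.38 and 0.39 (0.877). No group of JLP1 values was marked.

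For 5 named genes the difference between strains changed with the condition, by a contrast of the limma fit adjusted over all genes. SEO1, MET1, HOM2 and SAM4 were named because they were called lower under t-BOOH on these same arrays. Their contrasts with t-BOOH reuse those values and are a description only. Of all genes, 3.47% were called lower and 4.54% higher for arsenite minus t-BOOH. The shares were 1.89% and 0.947% for t-BOOH minus untreated, and 0.0395% and 0% for arsenite minus untreated. SEO1 had a log2 ratio 1.26 higher under arsenite than under t-BOOH (SE 0.20, adjusted p = 7.95e-03), MET1 one 1.11 higher (SE 0.23, adjusted p = 0.0168), HOM2 one 0.594 higher (SE 0.13, adjusted p = 0.0198) and SAM4 one 0.532 higher (SE 0.13, adjusted p = 0.0317). SAM4 also differed between t-BOOH and untreated cells (difference -0.577, limma adjusted p = 0.0418). ARR2 had differences of -2.75 between arsenite and untreated cells and -2.45 between arsenite and t-BOOH (SE 0.16 each, limma adjusted p = 2.64e-06 and 1.03e-05). For any contrast with t-BOOH, slide and condition cannot be told apart, though the strains shared each array.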

How the results depend on the processing

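The JLP1 values kept their direction under every alternative run, except the untreated ratio, which lay between -0.04 and 0.09. Leaving out 1 array gave -2.12 to -1.64 under arsenite, -1.17 to -0.90 under t-BOOH and -0.04 to 0.08 untreated. With 1 array left out, JLP1 responses to arsenite ran from 0.06 to 0.15 in the deletion strain and from 1.75 to 2.27 in the wild type. Those to t-BOOH ran from 2.51 to 2.61 and from 3.47 to 3.76. Under the other alternatives the arsenite responses ran from 0.10 to 0.22 in the deletion strain and from 2.03 to 2.34 in the wild type. The t-BOOH responses there ran from 2.46 to 2.83 and from 3.55 to 3.96. With processed signals the deletion strain's t-BOOH response was 2.83 in place of 2.56. The genes with a wild-type arsenite response of at least that of JLP1 and a deletion response under 0.5 numbered 1 in place of 2 without untreated replicate 2 or 4. They also numbered 1 without untreated replicate 4, t-BOOH replicate 1 and t-BOOH replicate 3 together.

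Counts of list genes moved with single arrays: between strains 0 to 1 lower in untreated cells, 0 to 1 lower and 0 to 1 higher under arsenite, 4 to 15 lower and 0 to 5 higher under t-BOOH, and in the wild-type arsenite response 4 to 10 lower. Under t-BOOH the lower genes numbered 5, 4, 15 and 4 without t-BOOH replicates 1 to 4, and the 5 higher came without replicate 3. The arrays of a condition fitted alone gave 5 lower and 1 higher under arsenite and 0 lower under t-BOOH, and median centring gave 1 higher under t-BOOH. Over all genes, the background counts moved from 29 to 269 lower and 0 to 174 higher under arsenite (172 and 46 with all arrays), from 197 to 873 lower and 60 to 697 higher under t-BOOH (538 and 376), and from 19 to 45 lower and 0 to 6 higher untreated (31 and 0). With a condition's arrays alone they were 368 and 364 under arsenite, 5 and 0 under t-BOOH and 20 and 1 untreated. Median centring gave 25 higher under arsenite, and processed signals 2 higher untreated. The causes were not tested.

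Whether replicate numbers pair the arrays is not settled, since 6 of 12 same-numbered pairs correlated over 0.1 and the range was wide (-0.32 to 0.35). Pairs with different numbers had a like range, from -0.46 to 0.34. With the replicate number as a block the JLP1 ratios were -1.89, -1.01 and 0.03 (SE 0.19 each), list genes lower under t-BOOH numbered 6, and all genes higher under arsenite 76.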
